A study of Drosophila melanogaster with 3 samples.

Results

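Raf and 9 other genes of the Ras-MAPK pathway were examined for ChIP-seq calls (regions enriched by chromatin immunoprecipitation) of the Drosophila melanogaster protein CG10565. The genes are Egfr, drk, Sos, Ras85D, Raf, Dsor1, rl, ksr, pnt and aop, 10 of the 18277 genes annotated on the main chromosomes, of which 13968 are protein-coding. They were found by symbol in the Ensembl annotation, and a call belonged to a gene when its summit lay between 1000 bp before the gene's start and 1000 bp past its end. The set was chosen on the calls themselves, with those at Raf already known, so the counts below are a description and no test was made on them. The chromatin came from whole embryos of both sexes, 0 to 24 hours old, of a transgenic line that stably expresses CG10565 with eGFP fused at its C terminus, and the precipitation used an antibody against GFP. There was 1 group of 3 biological replicates, numbered 1, 2 and 4 in the labels, and every sample carried the tagged protein. CG10565 is a J-domain protein related to the ribosome-associated chaperone DNAJC2 of humans. Whole embryos mix many cell types, so a call cannot be assigned to any of them.

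In this pathway a receptor tyrosine kinase such as Egfr recruits the adaptor drk and the exchange factor Sos, which loads the small GTPase Ras85D with GTP. Active Ras85D recruits Raf, which phosphorylates Dsor1, and Dsor1 in turn phosphorylates rl, with ksr as a scaffold for the kinases. In the nucleus the ETS factor pnt activates target genes, and the ETS factor aop, also known as Yan, represses them until rl phosphorylates it. In the fly embryo the pathway patterns the termini, the ventral ectoderm and the tracheal system.

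The sequences under the strongest calls are shown because most of these calls lay in introns, at places that no start site marks. They are the dm6 plus strand, read from the RefSeq copy of the assembly, within 100 bp of an IDR summit, and for Ras85D the whole stretch between its start site and that of its divergent neighbour Rlb1. Capitals mark the letters of 8 motifs on either strand, namely the GAGA element GAGAG, the DNA replication-related element TATCGATA, the BEAF-32 core CGATA contained in it, the TATA box TATAAA, the Zelda site CAGGTAG, the Pho core GCCAT, the E-box CANNTG and the ETS core CCGGAA. The other windows, among them any that touches an annotated exon, are not printed.
Raf, chrX:2297620-2297820: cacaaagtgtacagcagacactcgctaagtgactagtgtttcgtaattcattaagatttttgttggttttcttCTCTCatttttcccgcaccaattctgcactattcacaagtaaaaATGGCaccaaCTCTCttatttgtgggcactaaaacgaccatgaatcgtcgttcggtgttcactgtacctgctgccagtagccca
Raf, chrX:2300639-2300839: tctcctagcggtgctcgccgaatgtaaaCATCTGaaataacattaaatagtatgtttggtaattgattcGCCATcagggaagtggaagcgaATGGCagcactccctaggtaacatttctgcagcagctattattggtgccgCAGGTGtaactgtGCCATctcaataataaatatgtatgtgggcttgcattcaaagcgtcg
Raf, chrX:2304030-2304230: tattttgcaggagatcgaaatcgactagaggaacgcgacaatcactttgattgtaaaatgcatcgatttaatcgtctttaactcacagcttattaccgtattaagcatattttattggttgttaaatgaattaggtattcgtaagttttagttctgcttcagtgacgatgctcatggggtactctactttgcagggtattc
Ras85D and Rlb1, chr3R:9513068-9513326: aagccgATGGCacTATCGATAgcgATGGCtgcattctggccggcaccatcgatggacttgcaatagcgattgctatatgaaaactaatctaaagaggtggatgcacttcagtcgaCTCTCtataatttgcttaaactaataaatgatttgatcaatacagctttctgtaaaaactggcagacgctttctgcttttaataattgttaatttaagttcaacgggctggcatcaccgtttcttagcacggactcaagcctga
pnt, chr3R:23326412-23326612: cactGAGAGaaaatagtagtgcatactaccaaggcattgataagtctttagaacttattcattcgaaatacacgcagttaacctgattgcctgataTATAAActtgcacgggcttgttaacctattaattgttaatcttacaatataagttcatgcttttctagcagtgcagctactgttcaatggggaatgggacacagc
aop, chr2L:2163545-2163745: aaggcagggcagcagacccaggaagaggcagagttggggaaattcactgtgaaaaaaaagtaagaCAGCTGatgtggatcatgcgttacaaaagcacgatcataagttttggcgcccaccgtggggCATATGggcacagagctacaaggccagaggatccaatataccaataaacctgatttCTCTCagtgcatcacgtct

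Each list gives regions with a signal value from the authors' peak caller, which has meaning only within its list. There were 30000 regions in the pooled list, and as many in the list of every replicate. The optimal list, made by the authors with the irreproducible discovery rate (IDR), held 1143 regions, and these were exactly the 1143 pooled regions with the highest signal. They are called IDR peaks here, and calls ranked 1 to 1143 within a replicate are called top calls. The weakest IDR peak had a signal of 106. The commonest region width of replicate 4 was 600 bp, against 370 bp for the pool and replicate 1 and 350 bp for replicate 2. Read counts were not used, so the depth behind each call is unknown.

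Of the 10 genes, 5 had an IDR peak, namely Raf, Ras85D, drk, pnt and aop, with 8 peaks between them. The remaining 5, Egfr, Sos, Dsor1, rl and ksr, had none. Among all genes 8.30% had an IDR peak by the same rule, and among protein-coding genes 9.62%. Because the set was chosen with these calls known, nothing follows from that contrast. The share with a peak was also higher among longer genes. Egfr, Raf, rl, pnt and aop are 20 kb or longer, and 3 of these 5 had an IDR peak, where 23.6% of the 1020 protein-coding genes of that length had one. The other 5 are 2 to 10 kb long, and 2 of them, Ras85D and drk, had an IDR peak, against 10.4% of the 5451 protein-coding genes of that length. These length classes were set after the lengths of the 10 genes had been seen.

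**Figure D1:**
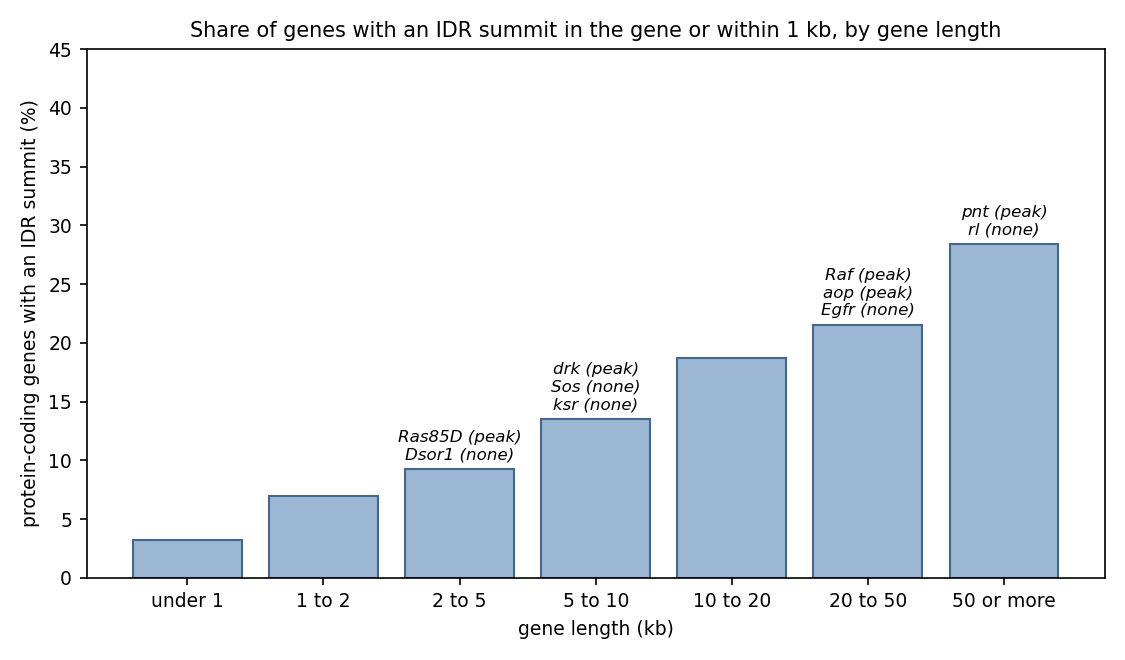
Bars show the share of protein-coding genes with an IDR summit in the gene or within 1 kb of it (vertical axis, percent) in 7 classes of gene length (horizontal axis, kb). Names above the bars are the pathway genes of each class, marked by whether they had a peak; the share is 3.24% under 1 kb and 28.4% at 50 kb or more.

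**Figure D2:**
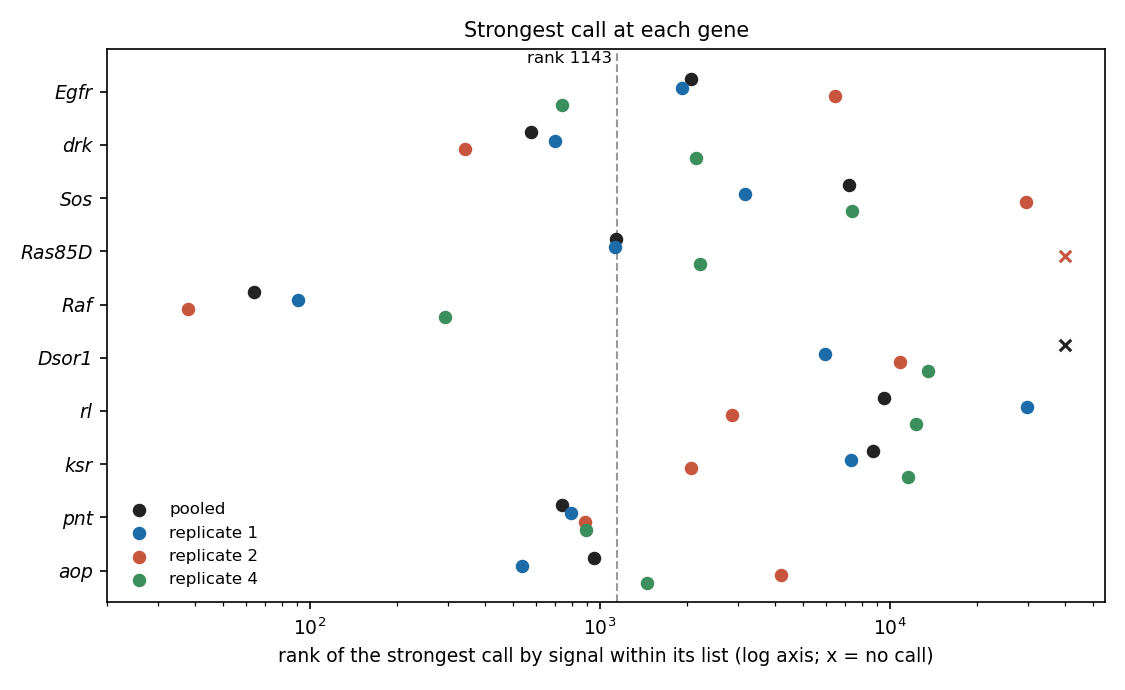
Each row is a gene, ordered from the receptor to the transcription factors, and each dot is the rank of its strongest call in the pooled list or in a replicate (log axis, lower is stronger). The dashed line is rank 1143, the length of the IDR list; Raf and pnt have all their dots left of it, and crosses mark a list with no call.

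Raf, the kinase that passes the signal of Ras85D on, had the strongest call and the most IDR peaks of the 10 genes. It had 4 IDR peaks, and 11 of the 13968 protein-coding genes (0.0788%) had 4 or more. All 11 were 20 kb or longer, where they made up 1.08% of genes. Raf (FBgn0003079) lies at X 2295466 to 2343870 on the plus strand, with start sites at 2295466 and 2340298. Its 4 IDR summits fell within 7834 bp at the 5′ end of the long transcript, between 0.830 kb and 8.66 kb downstream of the first start site and 36.2 kb to 44.0 kb upstream of the second. The strongest, printed first above, had its summit at 2297720 with a pooled signal of 345 and rank 64. Its signal was 92.1 in replicate 1, 165 in replicate 2 and 72.1 in replicate 4. It ranked 91, 38 and 291 there, so it was a top call in every replicate. The second, at 2296296, lay in the short 5′ UTR exon that ends at 2296353, with a pooled signal of 178 and rank 365. Its ranks in replicates 1, 2 and 4 were 602, 200 and 574, again a top call in all 3.

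The other pair of Raf peaks lay deeper in the 43.6 kb intron and held lower ranks in some replicates. The peak at 2300739 had a pooled signal of 165 and rank 437. Its signal was 57.2 in replicate 1 and 72.1 in replicate 2, where it ranked 347 and 264, but 20.8 in replicate 4, where it ranked 6778. The peak at 2304130 had a pooled signal of 153 and rank 515. It ranked 769 in replicate 1 and 4790 in replicate 4, and no call of replicate 2 covered its summit. Between these peaks lay weaker calls. A call at 2302267, with a pooled signal of 95.0 and rank 1397 just under the IDR list, ranked 671 in replicate 2, while the nearest calls of replicates 1 and 4 ranked 7428 and 1631.

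Neither start site of Raf carried a strong call. The first had a pooled call 218 bp upstream, with rank 6866 and a signal of 41.5. The second had one 366 bp upstream, with rank 7321 and a signal of 40.4. In the first 12 kb of the gene lay 7 of 12 pooled calls, 10 of 20 in replicate 1, 6 of 10 in replicate 2 and 12 of 17 in replicate 4. The 12 kb limit was set with the calls at Raf known, and neighbouring calls of a list can overlap. From 11.2 kb to 26.6 kb no list had a call. The annotation places a Tirant retrotransposon of 8.53 kb in that stretch, from 13.4 kb to 21.9 kb, and whether reads there could be placed was not tested. Further along, the intron holds other genes, among them the insulin-like peptide gene Ilp6. A call at 2329611, 548 bp upstream of lncRNA:CR33218 inside the intron, had a pooled signal of 76.5 and was a top call in replicate 2 alone, with rank 642. Just outside the 1000 bp limit, at 2293666, stood another IDR peak with a signal of 227 and rank 197. It lay 1800 bp upstream of Raf and 255 bp upstream of CG2865, which is transcribed the other way, and ranked 406, 402 and 82 in replicates 1, 2 and 4.

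**Figure D3:**
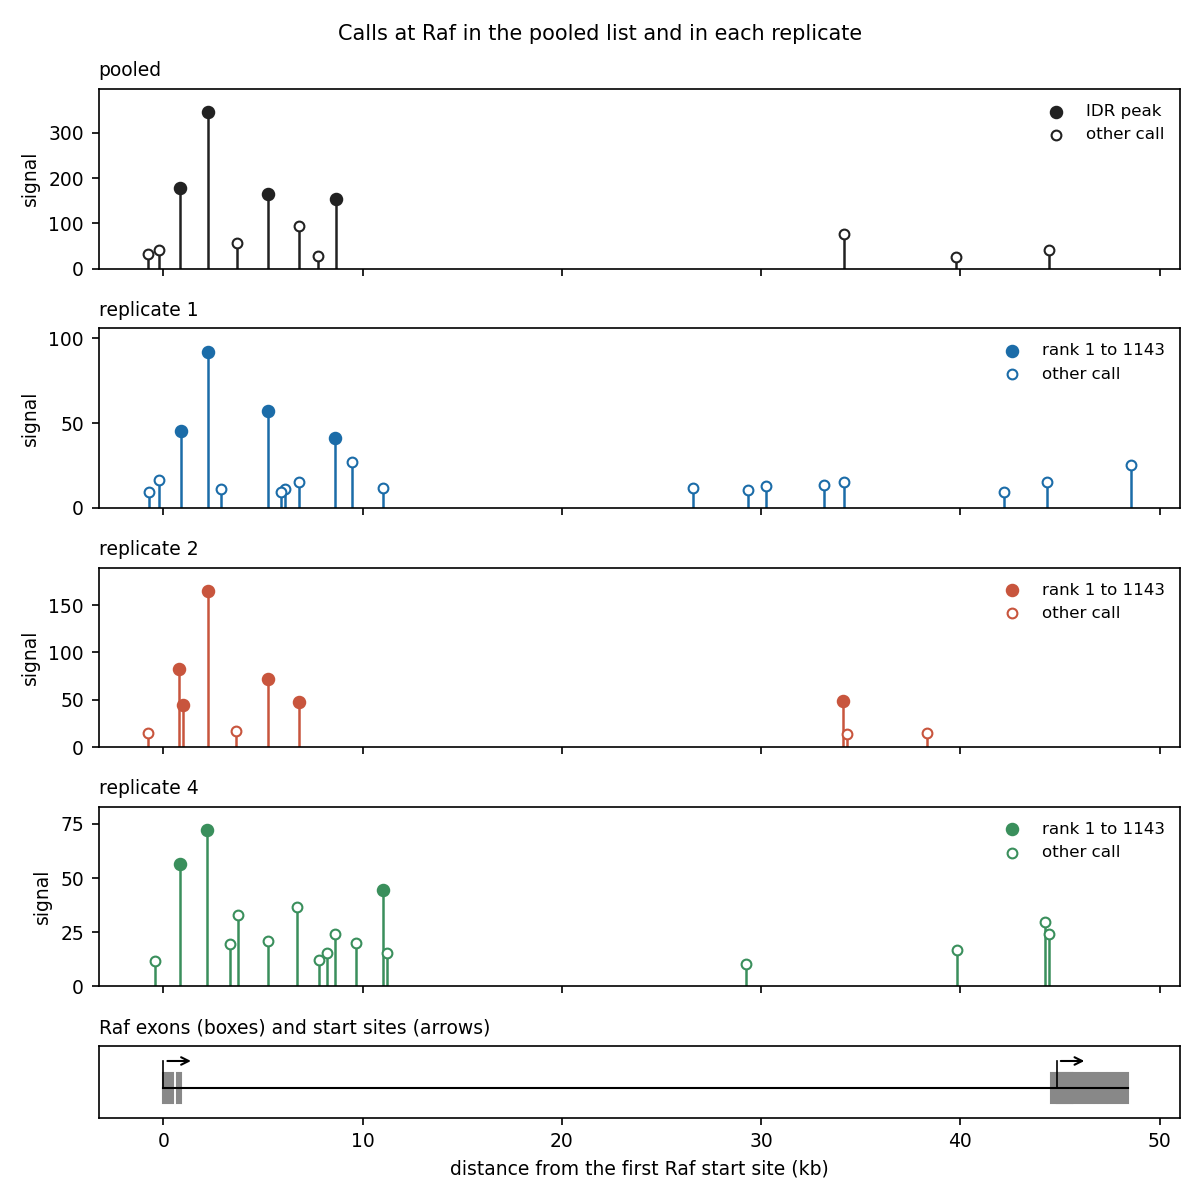
Vertical lines are calls at Raf, placed by the distance of the summit from the first start site (kb) with the signal as height, in the pooled list and in replicates 1, 2 and 4; each panel has its own signal scale. Filled dots are IDR peaks or calls ranked 1 to 1143, and the lowest panel gives the exons and start sites; the 4 IDR peaks all lie within 8.66 kb of the first start site.

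Ras85D, the GTPase upstream of Raf, had the weakest IDR peak of the set, and the only one near a start site. Ras85D (FBgn0003205, 3R 9510561 to 9513067, minus strand) shares a promoter region of 259 bp with Rlb1, which is transcribed the other way. The summit at 9513237 lay 170 bp upstream of Ras85D and 90 bp upstream of Rlb1, so the peak cannot be assigned to either gene. Its pooled signal was 107 and its rank 1132 of the 1143. Its signal was 34.6 in replicate 1 and 32.5 in replicate 4, with ranks 1128 and 2204. Replicate 2 had no call at Ras85D at all. Beyond it, 2 weak pooled calls lay in the gene, with signals of 50.3 and 48.1. The TATCGATA printed above stands at the Ras85D end of the shared region. It occurs in 6.99% of the 19263 regions of 259 bp upstream of protein-coding start sites, and the GAGAG of the same region in 29.6%.

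The nuclear end of the pathway, pnt and aop, each had an IDR peak in an intron. For pnt (FBgn0003118, 3R 23290231 to 23346167, minus strand), which encodes the ETS activator, the summit was at 23326512. It lay 19.7 kb downstream of the most upstream of its 3 start sites and 12.2 kb upstream of the next. The pooled signal was 130 with rank 742. The signal was 40.5 in replicate 1, 40.5 in replicate 2 and 46.8 in replicate 4. The ranks were 792, 884 and 897, the closest across replicates of the 8 peaks, and the 3 replicate summits lay within 17 bp of the pooled one. A second region 14670 bp downstream of the same start site, at 23331497, missed the IDR list with a signal of 101 and rank 1240. The nearest calls of replicates 1, 2 and 4 ranked 1401, 1009 and 3132, so only that of replicate 2 was a top call. Between 10420 and 14670 bp downstream of that start site pnt held 6 pooled calls, of 19 in all, with signals of 27.0 to 101.

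The repressor gene aop (FBgn0000097, 2L 2156484 to 2178754, minus strand) had an IDR peak with a listed call over its summit in replicate 1 only. Its summit at 2163645 was 15.1 kb downstream of the first start site and 2118 bp upstream of the second, with a pooled signal of 116 and rank 953. In replicate 1 it had a signal of 48.0 and rank 539. Neither replicate 2 nor replicate 4 had a call over the summit. Over all IDR peaks, 88.2% had the summit inside a call of every replicate. A neighbouring region at 2164976, with a pooled signal of 91.4 and rank 1515, had calls ranked 1289 in replicate 1 and 1450 in replicate 4 close by. Neither was a top call, and no call of replicate 2 covered it. Just outside the 1000 bp limit, another IDR peak stood 1469 bp upstream of aop, at 2180223. Its pooled signal was 137, and it ranked 391, 777 and 2193 in replicates 1, 2 and 4. Replicate 2 had 4 calls at aop, where replicates 1 and 4 had 19 and 14.

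The adaptor and the receptor lie on chromosome arm 2R, and the window at drk is among those not shown. The adaptor gene drk (FBgn0004638, 2R 13495222 to 13502841, minus strand) had an IDR peak in an intron at 13499772, 2521 bp downstream of its nearer start site. The nearest start site of any gene was that of mars, an overlapping gene on the other strand, 849 bp away. The pooled signal was 145 with rank 580. The signal was 42.7 in replicate 1, 63.3 in replicate 2 and 32.9 in replicate 4. It ranked 701, 343 and 2137 there, a top call in replicates 1 and 2. The promoter of drk held only a weak pooled call with a signal of 33.4.

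Egfr (FBgn0003731, 2R 21522420 to 21559977, plus strand), the receptor, had 15 pooled calls and no IDR peak. The strongest, at 21542716 in an intron, had a signal of 76.6 and rank 2066. The next, at 21535456, also intronic, had a signal of 70.7 and was a top call in replicate 4 with rank 739. Another pooled call overlapped it, at 21535664, with a signal of 48.5 and rank 4914. The nearest calls of replicates 1 and 2, with ranks 1911 and 15183, had summits closer to 21535664. That of replicate 1 did not cover the summit at 21535456. The call 168 bp downstream of the first start site had a signal of 50.3 and rank 4526, and the call 78 bp downstream of the second had a signal of 33.3. Calls were thus spread along the receptor gene at 3.79 per 10 kb, where the median of protein-coding genes of 20 kb or more was 2.38 per 10 kb. Raf had the same density of 2.38, pnt 3.28 and aop 6.18.

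**Figure D4:**
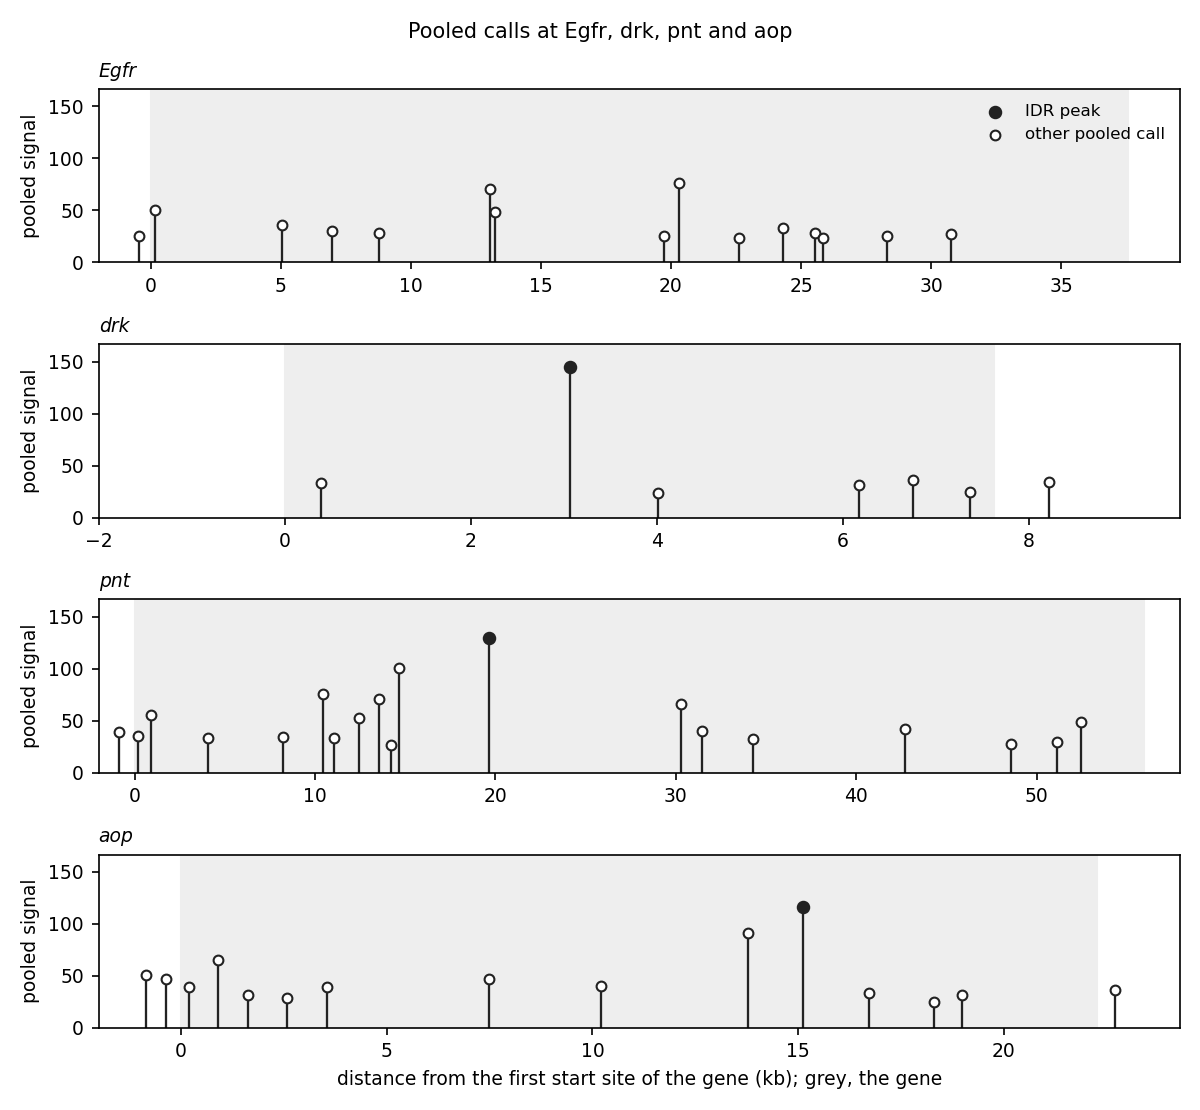
Vertical lines are pooled calls at Egfr, drk, pnt and aop, placed by the distance of the summit from the first start site of each gene (kb), with the pooled signal as height on a common scale. Filled dots are IDR peaks, with signals of 145 at drk, 130 at pnt and 116 at aop, and none of the 15 calls at Egfr is above 76.6.

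The genes of the kinases below Raf, Dsor1 and rl, had only weak calls, as did the scaffold gene ksr and the exchange factor gene Sos. Dsor1 (FBgn0010269, X 9247342 to 9250037, plus strand), the MAP kinase kinase, had no pooled call, though 73.3% of protein-coding genes had at least 1. Its strongest calls in replicates 1, 2 and 4 ranked 5961, 10823 and 13527. The MAP kinase gene rl (FBgn0003256, 2R 1071462 to 1125927, plus strand) lies in the heterochromatin beside the centromere, and its 3 pooled calls were all intronic, the strongest with a signal of 36.6 and rank 9518. That was 0.531 calls per 10 kb, the lowest of the 5 long genes. Its best ranks in replicates 1, 2 and 4 were 29705, 2848 and 12301. The scaffold gene ksr (FBgn0015402, 3R 5478390 to 5483906, minus strand) had a call in a coding exon with a signal of 37.8 and rank 8740, and a weaker one 338 bp upstream of its start site with a signal of 28.0. The exchange factor gene Sos (FBgn0001965, 2L 13813816 to 13819824, plus strand) had 2 pooled calls at its start site, 451 bp upstream with a signal of 40.6 and 70 bp downstream with a signal of 30.4. All 4 genes lacked a top call in each of the 3 replicates.

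Across the set, most calls were intronic. Of the 8 IDR summits, 6 lay in an intron of the gene, 1 in a 5′ UTR exon and 1 in the Ras85D promoter region. Only the last was within 500 bp of an annotated start site of any gene, a distance reached by 54.9% of all IDR peaks. Of the 78 pooled calls at the 10 genes, 16 lay within 500 bp of a start site of the gene. Of the rest, 47 were intronic, 4 lay in coding exons, 6 in UTR exons and 5 outside the gene. With start sites not considered, 51 of the 78 were intronic and 11 outside the gene. The rule that chose the set counts a whole gene with its introns, so long genes add intronic calls by construction. The intronic share over all IDR peaks or all pooled calls was not computed. These counts therefore show no intronic preference particular to the 10 genes.

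Where a replicate had a call over an IDR summit, the best-ranked one lay near the pooled summit, but ranks differed between replicates. The best-ranked call of each replicate over each of the 8 IDR summits was taken. These 20 calls lay 0 to 64 bp from the pooled summit, with a median of 19.0 bp. A lower-ranked call of replicate 2, with its summit at 2296465, also covered the Raf summit at 2296296. A call counted only if its region covered the pooled summit, which limits these distances by construction. The pooled list is also made from the same replicates. Of the 8 peaks, 5 had the summit inside a call of every replicate, where 88.2% of all IDR peaks did. Of the rest, 2 had it in 2 replicates and 1 in 1. A top call of every replicate covered 3 of them, 2 at Raf and that at pnt, where 38.4% of all IDR peaks had this support. Without replicate 4 the count was 5, and without replicate 1 or replicate 2 it was 3. At the level of genes, 5 of the 10 had a top call in replicate 1, against 9.79% of protein-coding genes. In replicate 2 they were 3, against 9.32%, and in replicate 4 they were 3, against 9.24%. Raf and pnt had one in all 3 replicates, where 4.49% of protein-coding genes did.

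The windows around the summits shared no motif of the 8. GAGAG, bound by the GAGA factor Trl, was in 4 of the 8 windows of 201 bp, at Ras85D, the strongest Raf peak, pnt and aop, against 23.2% of all IDR windows and 19.6% of other pooled windows. Within 50 bp of the summit it was in 1 of 8, the strongest Raf peak, where it was in 7.87% of all IDR windows. The E-box CANNTG was in 4 of 8 against 57.7% of all IDR windows, TATAAA in 2 against 36.6% and GCCAT in 2, both at Raf, against 26.0%. The Raf peak at 2300739 held GCCAT 3 times, and the Raf peak at 2304130 held none of the 8 motifs. No window held CGATA or the longer TATCGATA, against 25.8% and 2.36% of all IDR windows. CAGGTAG was in none of the 8 either, against 1.05%, nor was the ETS core CCGGAA, against 4.90%. At pnt the TATAAA began 4 bp before the summit. The GC content of the 8 windows ran from 35.3% at Ras85D to 48.3% at aop with a median of 38.8%, against a median of 34.3% over all IDR windows and 38.3% over other pooled windows. A count over 8 windows is a description, and a match is not a measured site.

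Other genes of the pathway were read from lists of their symbols, which were drawn up with earlier results of these data known. Of 65 such genes 15 had an IDR peak (23.1%), against 9.62% of protein-coding genes. These genes were also longer, with list medians of 6.11 to 14.4 kb against 2164 bp over protein-coding genes. The share with a peak was 13.5% among protein-coding genes of 5 to 10 kb and 18.7% among those of 10 to 20 kb. The contrast was not adjusted for length. Of 7 ligand and ligand-processing genes, 4 had one. At spi, the main Egfr ligand, the summit lay 240 bp upstream of a start site with a signal of 227, and S, which escorts spi through the secretory pathway, had 2 peaks, the stronger with a signal of 225. The ligand genes vn and Krn had signals of 141 and 107, while grk, rho and ru had no IDR peak. Of 11 inhibitors, 4 had one. They were aos, a secreted inhibitor of Egfr that the pathway itself induces, with 2 peaks and a best signal of 254, RasGAP1 with 371, edl with 184 and Nf1 with 106. The RasGAP1 summit lay outside the gene, 716 bp upstream of a start site. The Nf1 summit lay past the end of the gene, 13607 bp downstream of its nearest start site.

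Of 14 adaptors, scaffolds and Raf regulators, 3 had an IDR peak. The junction gene cno had 2 peaks, and the stronger, with a signal of 563 and rank 13, was the highest among the 65 genes. The adaptor gene Shc came next with a signal of 432 and rank 32, its summit 112 bp upstream of the start site. The chaperone gene Hsp83 had 2 peaks with a best signal of 161. Of 17 targets and effectors, 3 had one, namely cic with a signal of 185, Ets65A with 122 and pros with 107. All 3 of these genes are 20 kb or longer, and the counts by list were not adjusted for length. The Ets65A summit lay outside the gene. Of 16 other receptor tyrosine kinases and their ligands, only Pvf3 had one, with a signal of 128. Of 2 other sets drawn up for comparison, 5 of 10 insulin and TOR genes and 1 of 10 Hedgehog genes had an IDR peak, against 5 of 10 here. Like the 10 genes here, they were drawn up with earlier results of these data known, so they are not a neutral background. Their median lengths were 7.58 kb and 5.78 kb, against 14.9 kb here. Over all protein-coding genes 9.62% had an IDR peak, the share to set beside each list above. Among the insulin and TOR genes with a peak, Lk6 had a signal of 640, the receptor gene InR 226, Thor 116 and mTor 111. No test of a difference between these sets was made. The Hedgehog gene with a peak was rdx, which had 4, as many as Raf.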

How the data were processed

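The samples were 3 biological replicates of anti-GFP ChIP-seq from embryos, in 1 group. Per the description deposited with the samples, the authors called regions per replicate and again on the 3 replicates pooled, each time against a control alignment, and derived the optimal list by IDR. The replicates shared the control, so their calls are not fully independent. Fragments were sonicated to 200 to 800 bp, per the labels. For the aligner, the caller and the IDR threshold, names and versions were not given in the sources used here. The deposited signal of a region (narrowPeak column 7) ranked regions within a list. The deposited score (column 9) served only as another ranking. The lists of another assembly, dm3, were not used.

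Lists were joined to Ensembl release 115 for the dm6 assembly with Python 3.11.15 and pandas 2.3.3, transposable elements left out. Coordinates are 1-based. Both strands were searched for motifs, 100 bp to each side of a summit. Gap1 was found as RasGAP1, and Tor, which matched more than 1 gene by synonym, was entered as mTor. The assignment of calls to genes was tested on simulated calls. The members, gene lists and named genes were chosen with earlier results of these data known. All 10 members are named, and of the other lists every gene with an IDR peak, except 1 that is not reported here. No test was made, since the calls chose the members.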

Additional observations from a re-analysis of the deposited data

How the results depend on the processing

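Of the counts reported over the 10 genes, 23 of 32 alternative values stayed within 1.5 times. With each IDR peak given only to the gene with the nearest start site, 2 genes (Raf and aop) kept 5 peaks, since the peaks at Ras85D, drk and pnt lay nearer to Rlb1, mars and lncRNA:CR46090. In the upper part of the IDR list by signal, cut at its middle, only Raf remained, with all 4 peaks. Peaks covered by a top call of every replicate numbered 3, with 3 to 5 when 1 replicate was left out, and 5 when any call of each replicate was enough. Genes with a top call in every replicate numbered 2, with 2 to 3 when 1 replicate was left out, and 1 when only the upper part of those ranks counted. Within 1000 bp of a start site lay 2 IDR summits for start sites of the gene and 3 for those of any gene, against 1 within 500 bp. Ranked by column 9, where many strong calls are tied, the best Raf call shared rank 1. No paired analysis was possible because there is 1 group. The number of reads behind each call is unknown, so calls absent from a list may be below its detection limit.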
